A study of Homo sapiens with 24 samples.

Results

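A set of 9 genes of the epithelial tight junction were followed in Panc-1 cells in which an acinar transcription factor could be switched on. They were the claudins CLDN1, CLDN4, CLDN7, CLDN10 and CLDN12, the membrane proteins OCLN (occludin) and F11R (junctional adhesion molecule A), and the scaffolds TJP1 (ZO-1) and TJP3 (ZO-3). The members were given as a list of gene symbols, drawn up with earlier results of these data known, and all 9 were found among the 14386 genes listed in any of 3 expression tables. Panc-1 is an established human line from a pancreatic ductal adenocarcinoma. Each table held 1 stable line grown from a screened clone: Tet-One, with the empty doxycycline-inducible vector, Tet-MIST1, with myc-tagged rat MIST1, and Tet-PTF1a, with myc-tagged mouse PTF1a. All 3 lines had been selected in puromycin and kept in medium with tetracycline-depleted serum. Cells of each line were left untreated (Control) or were given 1 µg/ml doxycycline (Dox) for 72 h, with 4 biological replicates in each of the 6 groups, so 24 libraries of poly(A) RNA in all. Passage was 32 for Tet-One and Tet-PTF1a and 33 for Tet-MIST1. Each line was 1 clone, so line, clone, passage and table cannot be told apart in any comparison between lines, and an error or a p-value covers the spread between cultures of that clone.

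Tight junctions seal the space between epithelial cells near their apical edge and set which ions and solutes can pass between them. Claudins are 4-span membrane proteins whose paired extracellular loops form the strands of the seal, and different claudins give the strands different permeability. Occludin, also a 4-span protein, lies in the same strands, and F11R is an immunoglobulin-like adhesion protein that helps to build the junction and to place polarity proteins at it. TJP1 and TJP3 are cytoplasmic scaffolds whose PDZ domains bind the tails of claudins and tie the junction to actin. MIST1 (BHLHA15) and PTF1a are basic helix-loop-helix factors of acinar cells, and factors of that class bind E boxes, the 6-base motif CANNTG.

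In hg19, the build of the tables, CLDN1 lies at chr3:190023490-190040235 on the minus strand, CLDN4 at chr7:73245193-73247023 on the plus strand and CLDN7 at chr17:7163222-7166512 on the minus strand. CLDN10 spans chr13:96085853-96232010 on the plus strand and CLDN12 chr7:90032648-90045268, also plus. OCLN spans chr5:68788119-68853931 (plus), F11R chr1:160965001-160991133 (minus), TJP1 chr15:29991571-30261002 (minus) and TJP3 chr19:3708335-3750811 (plus). CLDN4 was listed with 1 exon and TJP1 with 32. Summed exon lengths ran from 1831 bases for CLDN4 to 8557 bases for TJP1, and the GC content of the exons from 38.5% for CLDN12 to 63.8% for TJP3. Exons of CLDN10 shared 1555 bases with DZIP1 on the opposite strand, and the strand setting of the counting was not stated, so reads in that stretch cannot be told apart; F11R shared 1853 bases with a second protein-coding locus on its own strand. CLDN7 shared 38 bases with ELP5 and TJP3 41 bases with APBA3, both on the opposite strand. On their own strands, CLDN7 shared 269 bases with a second protein-coding locus and CLDN12 210 bases with a long noncoding RNA. OCLN and CLDN7 have pseudogene copies (OCLNP1 and CLDN7P1), so a part of their reads may be split between copies.

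RefSeq promoters (GRCh38.p14, 250 bases before and 50 after a transcript start, 300 in all) were found for 8 of the 9 members, all but F11R, some with several starts. Those of CLDN1, CLDN4 and CLDN7 are shown because these claudins changed with an induced helix-loop-helix factor, and that of CLDN10 because it moved in opposite directions with the 2 factors. Sequences run 5′ to 3′ on the strand of the gene, and capitals mark every CANNTG (the search covered both strands). CLDN1 is at chr3:190322397-190322696 (minus strand), CLDN4 at chr7:73830746-73831045 (plus), the downstream start of CLDN7 at chr17:7262429-7262728 (minus) and the downstream start of CLDN10 at chr13:95552470-95552769 (plus).
CLDN1: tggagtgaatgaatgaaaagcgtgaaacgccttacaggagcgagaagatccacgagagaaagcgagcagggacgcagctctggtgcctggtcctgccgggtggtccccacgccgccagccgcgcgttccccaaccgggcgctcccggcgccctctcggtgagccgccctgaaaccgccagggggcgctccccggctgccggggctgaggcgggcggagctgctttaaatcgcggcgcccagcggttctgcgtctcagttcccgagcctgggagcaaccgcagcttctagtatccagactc
CLDN4: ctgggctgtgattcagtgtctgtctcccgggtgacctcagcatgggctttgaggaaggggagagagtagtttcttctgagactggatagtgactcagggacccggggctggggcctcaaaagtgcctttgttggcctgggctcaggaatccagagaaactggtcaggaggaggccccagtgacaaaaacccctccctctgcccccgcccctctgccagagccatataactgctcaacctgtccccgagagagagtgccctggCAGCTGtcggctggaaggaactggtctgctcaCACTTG
CLDN7: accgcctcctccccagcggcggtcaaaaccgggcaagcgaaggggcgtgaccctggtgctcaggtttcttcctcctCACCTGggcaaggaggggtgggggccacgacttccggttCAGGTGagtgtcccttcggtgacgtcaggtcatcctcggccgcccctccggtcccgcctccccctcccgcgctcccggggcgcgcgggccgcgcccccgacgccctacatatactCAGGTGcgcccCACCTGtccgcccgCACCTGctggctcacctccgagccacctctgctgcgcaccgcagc
CLDN10: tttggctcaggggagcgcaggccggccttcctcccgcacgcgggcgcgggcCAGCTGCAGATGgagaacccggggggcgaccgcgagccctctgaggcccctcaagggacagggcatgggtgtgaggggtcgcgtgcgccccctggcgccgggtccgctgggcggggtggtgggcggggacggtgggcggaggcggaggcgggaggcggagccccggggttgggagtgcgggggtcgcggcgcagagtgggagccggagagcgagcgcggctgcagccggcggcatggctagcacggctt

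The CLDN1 window held 0 E boxes. The CLDN4 window held 2, CAGCTG at position 13 and CACTTG at position 45, where the first transcribed base is position 1. At the downstream start of CLDN7 there were 5, each spelled CACCTG or its reverse complement CAGGTG, at positions -174, -135, -20, -9 and 6. The upstream start of CLDN7 held 1 CANNTG and the upstream start of CLDN10 held 0, while the downstream start of CLDN10 held CAGCTG at position -199 directly followed by CAGATG at position -193. Among members whose windows are not shown, the starts of OCLN held 1 and 2 CANNTG and those of TJP3 held 3 and 1. The most upstream start of TJP1 held 1 and its other starts 0, and CLDN12 held 0. Members that passed with neither factor thus also held E boxes. Among all 35116 RefSeq promoters of the same length, 68.7% held at least 1 CANNTG, 36.4% held 2 or more and 1.79% held 5 or more. CAGCTG was in 17.9% of them, CATCTG or its reverse complement CAGATG in 14.7%, and CACCTG or CAGGTG in 20.6%. TGGGAAA, a motif of the RBPJ proteins that partner PTF1a (searched on both strands), was in 7.92% of promoters and, among the member starts, only in the upstream one of CLDN7. These matches describe the letters in the windows, and binding was not measured.

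Library totals over the listed genes ran from 17.2 to 43.0 M counts. They were lowest in Tet-PTF1a, where Control libraries held 18.1 to 43.0 M and Dox libraries 17.2 to 32.4 M. Levels are given as CPM, the depth-scaled read count deposited by the authors, and tests were run on the raw counts. In the Tet-PTF1a table, human PTF1A held 0 to 2 counts per Control library and 53 to 168 per Dox library. The induced factor was mouse PTF1a, so reads of the transgene and of the human gene cannot be told apart there. MIST1 (BHLHA15) was not listed for Tet-One or Tet-MIST1, so the induction of rat MIST1 could not be checked in these counts. In Tet-PTF1a, BHLHA15 held 2 to 16 counts per Control library and 12 to 22 per Dox library. All 6 epithelial markers (KRT7, KRT8, KRT18, KRT19, EPCAM, CDH1) and all 3 mesenchymal ones (VIM, CDH2, FN1) were listed for every line. Of 4 endothelial markers 0 were, and the leukocyte markers PTPRC and CD3E and the fibroblast markers COL1A2, DCN and LUM were not. Tet-One Dox replicate 1 stood apart: the SD over genes of its log2 deviation from the other 3 was 0.54, against 0.19 to 0.21 for those libraries. Tet-MIST1 Dox replicate 1 deviated by 0.22, against 0.099 to 0.15 in its group.

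Per kilobase of exon, which allows levels to be compared between genes, the order of the members differed between the clones. Dividing by length does not remove a trend with length and GC content between the clones, whose effect on the members is given below. In Tet-One Control, F11R was highest at 23.7 ± 1.18 CPM per kb (mean ± SD, n = 4), followed by CLDN7 at 18.7 ± 0.585. CLDN4 at 17.1 ± 0.670, TJP1 at 16.9 ± 0.711 and CLDN12 at 15.8 ± 1.38 came next, each overlapping its neighbour, then OCLN at 8.86 ± 0.569, CLDN10 at 4.62 ± 0.246, CLDN1 at 1.06 ± 0.0384 and TJP3 at 0.0911 ± 0.0303. CLDN1 was thus near the bottom of the order in the empty-vector clone. In Tet-MIST1 Control, CLDN4 led at 56.3 ± 3.37 CPM per kb, above CLDN7 at 23.8 ± 0.651, and CLDN1 at 15.6 ± 0.562 overlapped F11R at 14.6 ± 0.410. Below them stood TJP1 at 12.6 ± 0.278 and CLDN12 at 12.5 ± 0.297, which overlapped, then OCLN at 5.25 ± 0.146, CLDN10 at 3.10 ± 0.0792 and TJP3 at 0.435 ± 0.114. In Tet-PTF1a Control, F11R led again at 23.2 ± 0.446 CPM per kb, CLDN4 at 21.3 ± 0.933 overlapped TJP1 at 21.2 ± 0.155, and CLDN12 followed at 18.9 ± 0.885. OCLN at 10.6 ± 0.409 overlapped CLDN7 at 9.94 ± 0.406, and CLDN1 at 6.20 ± 0.345, CLDN10 at 4.29 ± 0.366 and TJP3 at 0.314 ± 0.0405 were lowest. With Dox, CLDN10 (5.48 ± 0.155) came to overlap CLDN7 (5.23 ± 0.226) in Tet-PTF1a, while TJP3 stayed last in every group.

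**Figure D1:**
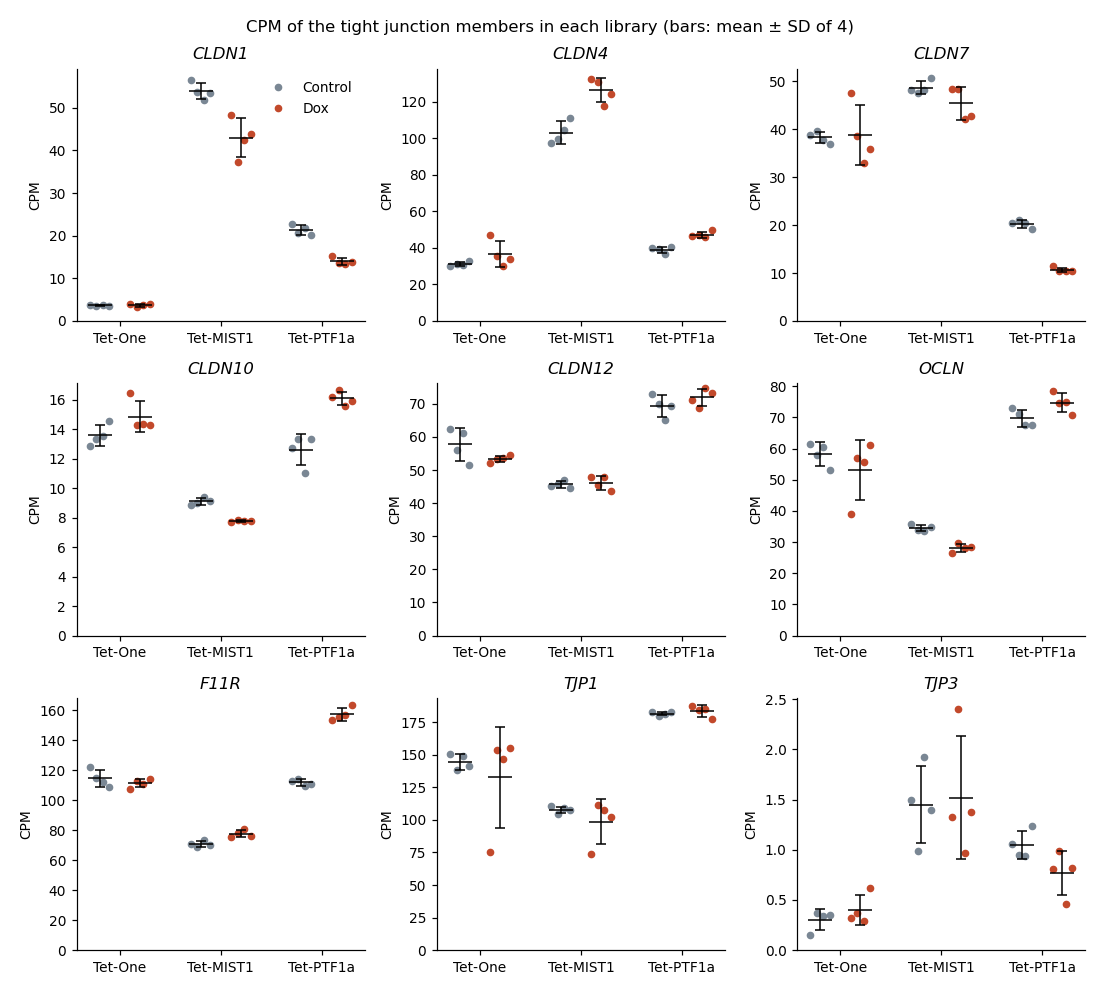
CPM (y axis, from 0, a separate scale for each gene) of the 9 members in each of the 24 libraries. Grey points are Control and red points Dox libraries, and the bar and whiskers give the mean ± SD of 4. CLDN7 in Tet-PTF1a sits at 19.2 to 21.2 CPM in Control and 10.4 to 11.4 in Dox, and CLDN1 is between 3.16 and 3.91 CPM in all 8 Tet-One libraries.

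The first comparison asked whether PTF1a induction altered the junction genes. In Tet-PTF1a, 6 of the 9 members passed FDR < 0.05, where 48.2% of all 14053 genes tested did: F11R, CLDN10, CLDN4 and OCLN rose, CLDN7 and CLDN1 fell, and CLDN12, TJP1 and TJP3 did not pass. Of all genes 23.8% rose and 24.4% fell. For 5 of the 6, all but OCLN, Dox and Control libraries did not overlap, as was the case for 42.3% of all genes. The median absolute log2 fold change of the members was 0.34, against 0.12 over all genes tested. Among all called genes 49.4% were higher, and 61.9% were higher when libraries were scaled by their totals alone. The 6 called members kept their direction under that scaling.

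CLDN7, a claudin of many simple epithelia, showed the largest difference. It measured 20.5, 21.2, 20.4 and 19.2 CPM in the 4 Control libraries and 11.4, 10.5, 10.4 and 10.4 CPM in the 4 Dox libraries. The groups were far apart, and the fitted level fell by 47.2%, a log2 fold change of -0.92 ± 0.060 (SE; edgeR quasi-likelihood FDR = 1.09e-18). CLDN1, a barrier-forming claudin, measured 22.8, 20.6, 21.9 and 20.2 CPM in Control and 15.2, 13.5, 13.3 and 13.8 CPM in Dox. Every Dox library was below every Control library, and CLDN1 fell by 35.0% (log2 -0.62 ± 0.058, FDR = 3.37e-13).

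F11R rose with PTF1a. Its levels were 113, 114, 109.7 and 110.5 CPM in Control and 153, 156, 157 and 164 CPM in Dox, with no overlap, a log2 fold change of 0.50 ± 0.027, or 1.41-fold (FDR = 1.31e-21). CLDN10, a claudin that forms paracellular ion channels, measured 12.7, 13.3, 11.1 and 13.4 CPM in Control and 16.2, 16.7, 15.6 and 15.9 CPM in Dox. It rose 1.27-fold (log2 0.34 ± 0.062, FDR = 7.66e-06), and all Dox libraries were above all Control libraries. DZIP1, whose exons overlap those of CLDN10, had a log2 fold change of -0.078 ± 0.037 SE, FDR = 0.0757, and so did not pass. CLDN4, the claudin also known as a receptor of a bacterial enterotoxin, measured 39.7, 39.4, 36.5 and 40.4 CPM in Control and 46.7, 46.9, 45.9 and 49.7 CPM in Dox. The groups did not overlap and CLDN4 rose 1.21-fold (log2 0.28 ± 0.039, FDR = 4.71e-08).

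OCLN showed a small difference that rested on the setting. Control libraries held 72.9, 71.0, 67.4 and 67.5 CPM and Dox libraries 78.4, 74.6, 75.0 and 70.9 CPM, so the groups overlapped. The log2 fold change of 0.092 ± 0.034 passed (FDR = 0.0203), and did not pass with DESeq2 (FDR = 0.0524), with a length and GC trend removed (FDR = 0.0742), in a fit of all 24 libraries (FDR = 0.514) or without Control replicate 3, Control replicate 4 or Dox replicate 1 (FDR = 0.0749, 0.0994 and 0.0996). The other 5 calls held in every alternative except a required log2 change of 1, which no member reached.

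The scaffold TJP1 measured 183, 180.1, 181 and 183 CPM in Control and 188, 184, 185 and 177 CPM in Dox (log2 fold change 0.012 ± 0.024, FDR = 0.722). CLDN12 lay at 65.0 to 72.9 CPM in Control and 68.8 to 74.7 CPM in Dox (log2 fold change 0.051, FDR = 0.221), and passed only with scaling by library totals alone (FDR = 0.0273). TJP3 was the sparsest member, with 45, 17, 19 and 47 counts in Control and 14, 21, 9 and 27 in Dox. Its log2 fold change of -0.43 ± 0.23 did not pass (FDR = 0.0870).

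Other markers moved beside these members. The summed level of the 6 epithelial markers was 3198 to 3380 CPM in Tet-PTF1a Control and 1440 to 1497 CPM in Dox, carried by the keratins KRT8, KRT18 and KRT19. CDH1 (E-cadherin) went the other way, from 14.0 ± 0.351 to 24.6 ± 1.69 CPM, as did KRT7, from 1.44 ± 0.348 to 4.52 ± 0.567 CPM (SD, n = 4). EPCAM, a partner that stabilises CLDN7, was lower with Dox, going from 57.5 ± 1.48 to 49.6 ± 0.846 CPM (SD, n = 4). The 3 mesenchymal markers, mostly VIM, summed to 4713 to 4940 CPM in Control and 3809 to 3923 CPM in Dox. The 2 listed leukocyte markers, mostly CD68, summed to 63.6 to 69.6 CPM in Control and 31.0 to 35.8 CPM in Dox, and the 2 listed fibroblast markers, mostly COL1A1, to 149 to 157 and 63.9 to 66.3 CPM. Their part in the members' changes was not tested. All of these markers were read in cultures of 1 Panc-1 clone. In bulk RNA, fewer cells that express a gene and less of its RNA per cell cannot be told apart.

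**Figure D2:**
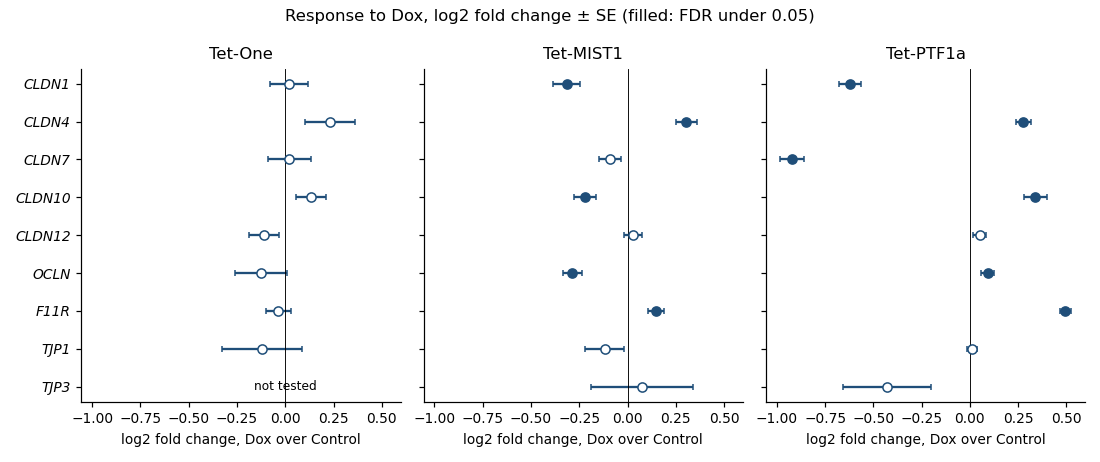
Log2 fold change of Dox over Control (x axis) with its SE for each member in the 3 lines, filled where FDR < 0.05. In Tet-PTF1a CLDN7 lies at -0.92 and F11R at 0.50, in Tet-MIST1 all values are within -0.31 and 0.30, and no Tet-One point is filled.

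The second comparison asked the same of MIST1. In Tet-MIST1, 5 of 9 members passed, where 20.6% of all 13623 genes tested did: CLDN4 and F11R rose (11.9% of all genes did), and CLDN1, OCLN and CLDN10 fell (8.77% of all genes did). The median absolute log2 fold change over the members was 0.15, against 0.12 over all genes. The same 5 members were those whose Control and Dox libraries did not overlap, which was the case for 27.1% of all genes.

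CLDN4 measured 97.3, 99.4, 105 and 111 CPM in Control and 132, 131, 118 and 124 CPM in Dox. It was higher in all 4 Dox libraries and rose 1.24-fold (log2 0.30 ± 0.056, FDR = 0.00337). F11R measured 70.7, 68.5, 73.3 and 70.2 CPM in Control and 75.7, 78.3, 80.5 and 76.3 CPM in Dox, a rise of 1.11-fold (log2 0.15 ± 0.043, FDR = 0.0323). This was the weakest call of the 5: it did not pass when any one of the Control replicates or Dox replicate 3 was left out (FDR up to 0.0980), and with a length and GC trend removed the log2 fold change was 0.23.

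CLDN1 measured 56.5, 53.7, 51.9 and 53.5 CPM in Control and 48.2, 37.3, 42.5 and 44.0 CPM in Dox. All 4 Dox libraries were lower, and it fell by 19.6% (log2 -0.31 ± 0.071, FDR = 0.0103). OCLN fell by 18.0%, from 35.7, 33.9, 33.7 and 35.0 CPM to 26.4, 29.8, 28.0 and 28.3 CPM (log2 -0.29 ± 0.051, FDR = 0.00269). The groups did not overlap. CLDN10 fell by 14.1%, from 8.88, 8.99, 9.41 and 9.14 CPM to 7.68, 7.83, 7.77 and 7.76 CPM (log2 -0.22 ± 0.056, FDR = 0.0186), with no overlap either, and did not pass without Control replicate 3 (FDR = 0.0720). DZIP1, which shares exon bases with CLDN10, rose in the same libraries (log2 0.24 ± 0.044 SE, FDR = 0.00336).

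CLDN7, which fell most with PTF1a, measured 48.3, 47.6, 48.3 and 50.7 CPM in Tet-MIST1 Control and 48.3, 48.4, 42.1 and 42.8 CPM in Dox. The groups overlapped and the log2 fold change of -0.090 ± 0.058 did not pass (FDR = 0.278), although it did with a length and GC trend removed (-0.14, FDR = 0.0249). TJP1 measured 110.3, 105, 109 and 108 CPM in Control and 73.6, 112, 107 and 102 CPM in Dox, where only Dox replicate 1, the library that stood apart in this group, was far below the rest. CLDN12 (44.6 to 47.1 CPM in Control, 43.5 to 47.9 in Dox) and TJP3 (0.991 to 1.92 and 0.968 to 2.40 CPM) overlapped between groups, with FDR = 0.700 and 0.852. The summed epithelial markers were 1626 to 1753 CPM in Control and 1599 to 2048 CPM in Dox of this line, so those ranges overlapped. The 2 listed leukocyte markers summed to 249 to 254 CPM in Control and 197 to 236 CPM in Dox, and their part in the members' changes was not tested.

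The empty-vector line gave the background of Dox itself. In Tet-One, 0 of the 8 members tested passed, as 0% of all 13428 genes did, with a smallest FDR of 0.897 over all genes by edgeR and 401 genes at an unadjusted p below 0.05, 0 of them members. Control and Dox libraries overlapped for every member tested, while 2.44% of all genes did not overlap. DESeq2 and the likelihood ratio test also called 0 genes. Log2 fold changes of the members ran from -0.13 for OCLN to 0.23 for CLDN4. CLDN4 measured 30.0, 31.2, 30.7 and 32.9 CPM in Control and 47.0, 35.4, 30.2 and 33.7 CPM in Dox, the highest value being that of Dox replicate 1. TJP1 measured 151, 138, 149 and 141 CPM in Control and 75.1, 153, 147 and 156 CPM in Dox, and OCLN 61.4, 57.8, 60.6 and 53.1 CPM and 39.1, 57.0, 55.6 and 61.0 CPM, both lowest in the same library. CLDN1 was low, at 3.75, 3.53, 3.79 and 3.56 CPM in Control and 3.90, 3.16, 3.83 and 3.91 CPM in Dox. TJP3, with 6 to 22 counts per library, did not pass the filter on low values in this line. Without Dox replicate 1 the members' log2 fold changes included 0.084 for CLDN4 and 0.069 for TJP1, and 0 members passed. Over all 13407 genes tested in that fit, 1636 had an unadjusted p below 0.05 by edgeR. The smallest FDR was 0.0114 and 1 gene was called, so the background of Dox in this line depended on that library.

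Whether the 2 factors and the empty vector gave different responses was tested as an interaction between line and Dox. Against Tet-One, the PTF1a response differed in 3 of 9 members, where 12.9% of all genes passed. F11R responded more (0.53 ± 0.064 on the log2 scale, FDR = 3.01e-05), and CLDN7 (-0.95 ± 0.12, FDR = 6.91e-05) and CLDN1 (-0.64 ± 0.11, FDR = 6.36e-04) were shifted down. The rise of CLDN4 with PTF1a did not differ past the threshold from its change in Tet-One (0.045 ± 0.14, FDR = 0.880), and without Tet-One Dox replicate 1 it did (0.19, FDR = 0.0349), as did CLDN10 (0.27, FDR = 0.0187), so that 5 members passed. With all libraries kept, CLDN4 also passed with a length and GC trend removed (0.20, FDR = 0.0491). CLDN10 did so with scaling by library totals alone (0.28, FDR = 0.0466). Against Tet-One the MIST1 response differed in 1 of 9 members, where 1.67% of all genes passed. This was CLDN10 (-0.36 ± 0.084, FDR = 0.0402), and the call was lost in 14 of 16 fits that each left out 1 library, with FDR up to 0.112. It held without Tet-One Control replicate 4 and without Tet-One Dox replicate 1, and in the latter fit OCLN passed as well (-0.29, FDR = 0.0198). With no library left out, the other members called in Tet-MIST1 did not pass against Tet-One. They were CLDN4 (0.066 ± 0.14, FDR = 0.954), OCLN (-0.17 ± 0.15, FDR = 0.805), F11R (0.18 ± 0.067, FDR = 0.273) and CLDN1 (-0.34 ± 0.12, FDR = 0.204). CLDN1 did pass with a length and GC trend removed (-0.38, FDR = 0.0372). The comparisons of PTF1a and of MIST1 with Tet-One share the Tet-One libraries.

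Set directly against each other, the PTF1a and MIST1 responses differed in 5 of 9 members, where 36.4% of all genes did. CLDN10 (0.57 ± 0.083, FDR = 1.29e-05) and OCLN (0.39 ± 0.062, FDR = 3.44e-05) fell with MIST1 and rose with PTF1a. For OCLN the rise was small (0.092), between groups that overlapped, and its call rested on the setting. F11R rose in both lines, more with PTF1a (0.36 ± 0.049, FDR = 6.62e-06). CLDN7 (-0.82 ± 0.082, FDR = 7.41e-08) passed with PTF1a and not with MIST1, and CLDN1 (-0.29 ± 0.099, FDR = 0.0233) fell in both lines, more with PTF1a, although that difference did not pass without Tet-PTF1a Control replicate 1 (FDR = 0.0638). For CLDN4 the difference between the 2 rises was -0.016 ± 0.071 (FDR = 0.883). DZIP1 also differed between these responses (log2 -0.31 ± 0.057 SE, FDR = 2.09e-04), in the direction opposite to CLDN10.

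Untreated cells of the 3 clones also differed in these genes. All 9 members passed in each of the 3 pairs of Control groups, where 80.2% (Tet-MIST1 against Tet-One), 79.7% (Tet-PTF1a against Tet-One) and 86.3% (Tet-PTF1a against Tet-MIST1) of all genes did, so the calls alone do not set the members apart. CLDN1 showed the largest difference: 3.66 ± 0.133 CPM in Tet-One, 53.9 ± 1.94 CPM in Tet-MIST1 and 21.4 ± 1.19 CPM in Tet-PTF1a (SD, n = 4). That is 14.5-fold higher in Tet-MIST1 than in Tet-One (FDR = 1.70e-20) and 5.46-fold higher in Tet-PTF1a than in Tet-One (FDR = 1.18e-14). CLDN4 was 31.2 ± 1.23, 103 ± 6.18 and 39.0 ± 1.71 CPM in the same order, 3.28-fold higher in Tet-MIST1 than in Tet-One. CLDN7 was 38.3 ± 1.20, 48.7 ± 1.33 and 20.3 ± 0.829 CPM, so the Tet-PTF1a clone was lower than Tet-One before any Dox (log2 -1.00 ± 0.045, FDR = 4.59e-12). ELP5, which shares 38 exon bases with CLDN7, differed in the same directions (log2 1.06 ± 0.040 SE, FDR = 1.17e-14 for Tet-MIST1 and -0.54 ± 0.041 SE, FDR = 3.15e-09 for Tet-PTF1a, each against Tet-One).

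Tet-MIST1 had the lowest Control level of 5 members. These were OCLN (34.6 ± 0.959 CPM, against 58.2 ± 3.74 in Tet-One and 69.7 ± 2.69 in Tet-PTF1a), F11R (70.7 ± 1.98, against 114 ± 5.70 and 112 ± 2.15) and TJP1 (108 ± 2.38, against 145 ± 6.08 and 182 ± 1.33). CLDN12 (45.6 ± 1.09, against 57.8 ± 5.07 and 69.3 ± 3.24) and CLDN10 (9.11 ± 0.233, against 13.6 ± 0.722 and 12.6 ± 1.08) were the others. TJP3 was highest in Tet-MIST1 (1.45 ± 0.381 CPM, against 0.304 ± 0.101 and 1.05 ± 0.135). Between Tet-PTF1a and Tet-One, OCLN (0.18), TJP1 (0.25) and CLDN12 (0.18) were higher on the log2 scale and turned lower once a trend of fold change with length and GC content was removed (-0.32, -0.20 and -0.19, each passing), so no direction can be given for them between these clones. CLDN10 (-0.18) and F11R (-0.12) did not pass there with scaling by library totals alone (FDR = 0.194 and 0.476), nor did CLDN10 without Tet-PTF1a Control replicate 3 or Tet-One Control replicate 4 (FDR = 0.0795 and 0.0570). With that trend removed both were further from 0 and passed (CLDN10 -0.33, FDR = 8.48e-05, and F11R -0.30, FDR = 1.74e-09). Removing it also moved CLDN4 between these clones from 0.24 to 0.72 and CLDN7 from -1.00 to -0.56. Between Tet-PTF1a and Tet-MIST1 it moved OCLN from 0.94 to 0.32, TJP1 from 0.68 to 0.086, CLDN12 from 0.53 to 0.086, CLDN10 from 0.40 to 0.22, CLDN4 from -1.47 to -0.93 and CLDN7 from -1.34 to -0.85. TJP3 (-0.48) did not pass between those clones without Tet-MIST1 Control replicate 3 (FDR = 0.107), with that trend removed (-0.23, FDR = 0.209) or in a fit of all 24 libraries (FDR = 0.0879). Summed epithelial markers in Control were 4879 to 5791 CPM in Tet-One, 1626 to 1753 in Tet-MIST1 and 3198 to 3380 in Tet-PTF1a. In the same order, the 3 mesenchymal markers summed to 5975 to 6532, 4910 to 5082 and 4713 to 4940 CPM, the 2 listed leukocyte markers to 103 to 114, 249 to 254 and 63.6 to 69.6 CPM, and the 2 listed fibroblast markers to 111 to 137, 62.4 to 67.8 and 149 to 157 CPM. Their part in these differences was not tested.

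The makeup of the claudins, as the share of each of the 5 in their summed CPM per kb, is a description with no test. In Tet-PTF1a the sum itself was 60.6 ± 2.03 CPM per kb in Control and 60.2 ± 1.09 in Dox, a difference within the replicate spread. CLDN4 went from 35.1% ± 0.815 to 42.9% ± 0.957 (SD, n = 4) and CLDN10 from 7.08% ± 0.444 to 9.10% ± 0.359, while CLDN7 went from 16.4% ± 0.836 to 8.68% ± 0.388 and CLDN1 from 10.2% ± 0.650 to 6.71% ± 0.377. CLDN12 held 31.2% ± 0.463 and 32.6% ± 1.05. In Tet-MIST1 the sum was 111 ± 3.64 and 119 ± 5.54 CPM per kb, and CLDN4 went from 50.6% ± 1.40 to 58.0% ± 0.936 while CLDN1 went from 14.0% ± 0.829 to 10.5% ± 1.04 and CLDN7 from 21.4% ± 0.276 to 18.7% ± 0.695. In Tet-One, with sums of 57.2 ± 0.846 and 59.6 ± 7.16, CLDN1 made up only 1.85% ± 0.0509 in Control and 1.81% ± 0.262 in Dox, and CLDN4 29.8% ± 1.62 and 33.3% ± 2.48. The ratio of CLDN4 to CLDN7 counts, which needs no scaling between libraries, was 1.92 ± 0.137 in Tet-PTF1a Control and 4.44 ± 0.265 in Dox, 2.12 ± 0.0811 and 2.79 ± 0.0901 in Tet-MIST1, and 0.817 ± 0.0536 and 0.940 ± 0.0347 in Tet-One. Control and Dox libraries did not overlap for this ratio in any line, the empty-vector one included (0.772 to 0.893 in Control and 0.917 to 0.991 in Dox), so a higher ratio with Dox was also measured where 0 members were called. The ratio of CLDN4 to CLDN1 counts was 1.83 ± 0.151 and 3.40 ± 0.222 in Tet-PTF1a, 1.92 ± 0.162 and 2.96 ± 0.365 in Tet-MIST1, and 8.55 ± 0.592 and 9.95 ± 2.01 in Tet-One, where the groups overlapped.

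**Figure D3:**
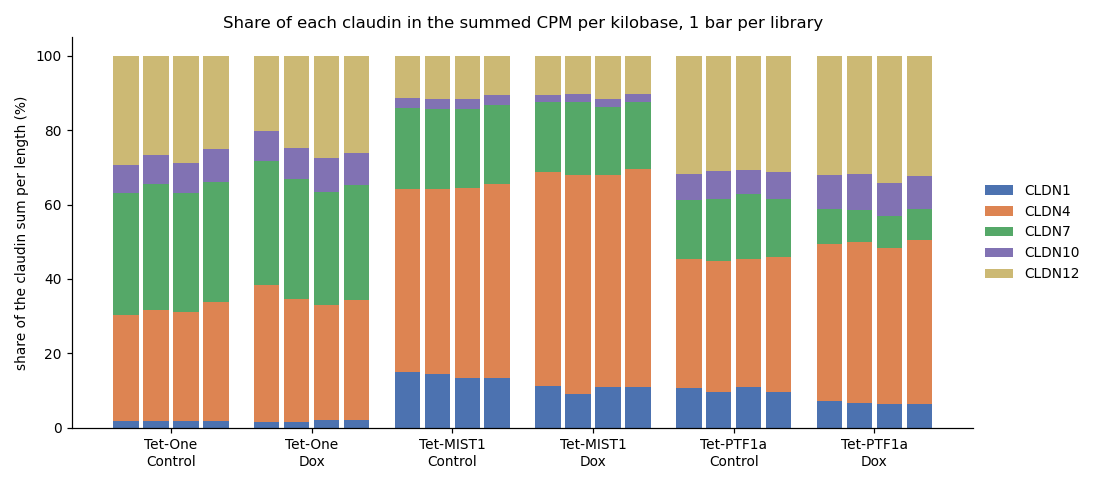
Share in percent (y axis) of each claudin in the summed CPM per kb of the 5, with 1 stacked bar per library and 4 bars per group. CLDN4 (orange) makes up about 50.6% in Tet-MIST1 Control and 58.0% in Dox, and CLDN7 (green) goes from 16.4% to 8.68% in Tet-PTF1a.

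The other genes of the junction and its surroundings were read from a list of 93 symbols, older and newer spellings included, of which 63 were listed in any table. In Tet-PTF1a, 43 of 63 passed (68.3%, against 48.2% of all genes tested), 24 higher and 19 lower, and the median log2 fold change of the list was 0.016 against 0.0014 over all genes. Tested against the response of Tet-One, the PTF1a response differed in fewer list genes, 14 of 61 (23.0%, against 12.9% of all genes). Among adherens junction genes 6 rose, led by CDH1 (0.82) and JUP, plakoglobin (0.41), and 1 fell, CDH3 or P-cadherin, with 3.28 ± 0.307 CPM in Control and 1.12 ± 0.163 CPM in Dox (SD, n = 4; log2 fold change -1.47, FDR = 7.29e-12). Of the scaffolds 5 rose and 5 fell. CGNL1 (paracingulin), a relative of the junction scaffold cingulin, had 4.13 ± 0.584 CPM in Control and 11.6 ± 0.381 CPM in Dox (SD, n = 4; log2 fold change 1.45, FDR = 5.27e-20). PLEKHA7, a linker of adherens junctions to microtubules, had 12.6 ± 0.529 CPM in Control and 6.89 ± 0.209 CPM in Dox (SD, n = 4; log2 fold change -0.88, FDR = 4.99e-15). Of the partners and regulators of claudins 4 rose and 4 fell. SPINT1, an inhibitor of the protease matriptase, had 5.96 ± 0.494 CPM in Control and 22.2 ± 0.375 CPM in Dox (SD, n = 4; log2 fold change 1.87, FDR = 1.76e-29), and WNK4, a kinase that phosphorylates claudins, had 1.96 ± 0.431 CPM in Control and 5.71 ± 0.301 CPM in Dox (SD, n = 4; log2 fold change 1.58, FDR = 4.78e-16). The epithelial transcription factor ELF3 fell, with 6.79 ± 0.598 CPM in Control and 3.41 ± 0.142 CPM in Dox (SD, n = 4; log2 fold change -1.00, FDR = 2.70e-12). Of 8 further membrane proteins 3 rose and 3 fell. The largest change among them was the fall of PERP (log2 fold change -0.85 ± 0.018 SE, FDR = 3.89e-38), at a mean of 1730 CPM. LSR, angulin-1 of tricellular contacts, rose (0.43), and MARVELD2, tricellulin, fell (-0.23). Of 6 other claudins CLDN15 rose (0.35) and CLDN11 fell (-0.87), and CLDN3, CLDN6, CLDN9 and CLDN23 did not pass.

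In Tet-MIST1, 8 of 57 tested list genes passed (14.0%, against 20.6% of all genes), 4 higher and 4 lower, with a list median of -0.084. CLDN3 was the only further claudin to pass, with 1.95 ± 0.422 CPM in Control and 2.99 ± 0.438 CPM in Dox (SD, n = 4; log2 fold change 0.62, FDR = 0.0148). In Tet-One its log2 fold change with Dox was 0.52 ± 0.25 SE (edgeR FDR = 0.897). Against Tet-One, the MIST1 response differed in 0 of 6 further claudins. LLGL2, a polarity protein of the basolateral side, had 14.4 ± 0.658 CPM in Control and 20.7 ± 1.89 CPM in Dox (SD, n = 4; log2 fold change 0.53, FDR = 4.22e-04), and AMOTL1, an angiomotin scaffold, had 16.9 ± 1.35 CPM in Control and 21.2 ± 3.52 CPM in Dox (SD, n = 4; log2 fold change 0.33, FDR = 0.0469). Those that fell included PARD6G, of the PAR polarity complex, with 6.80 ± 0.261 CPM in Control and 4.88 ± 0.126 CPM in Dox (SD, n = 4; log2 fold change -0.46, FDR = 7.00e-04), the transcription factor GRHL3, with 4.76 ± 0.114 CPM in Control and 3.71 ± 0.305 CPM in Dox (SD, n = 4; log2 fold change -0.34, FDR = 0.0114), and the adhesion protein JAM3, with 72.2 ± 0.847 CPM in Control and 61.6 ± 4.68 CPM in Dox (SD, n = 4; log2 fold change -0.22, FDR = 0.0157). Of these 8 genes, GRHL3 (1.19 with PTF1a), LLGL2 (-0.47), JAM3 (0.34) and SPINT2 (0.25 in Tet-MIST1, -0.40 in Tet-PTF1a) passed in the opposite direction in Tet-PTF1a. SPINT2 had a log2 fold change of 0.25 with Dox in Tet-One too, with a larger SE (0.18), and did not pass there (edgeR FDR = 0.897). The adhesion protein CXADR passed in the same direction in both lines (-0.15, FDR = 0.0467 with MIST1 and -0.18, FDR = 1.78e-05 with PTF1a), and CLDN3, AMOTL1 and PARD6G did not pass in Tet-PTF1a. In Tet-One 0 of 59 list genes passed. Tested against the response of Tet-One, the MIST1 response differed in 2 of 61 list genes (3.28%, against 1.67% of all genes), both of the polarity class.

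**Figure D4:**
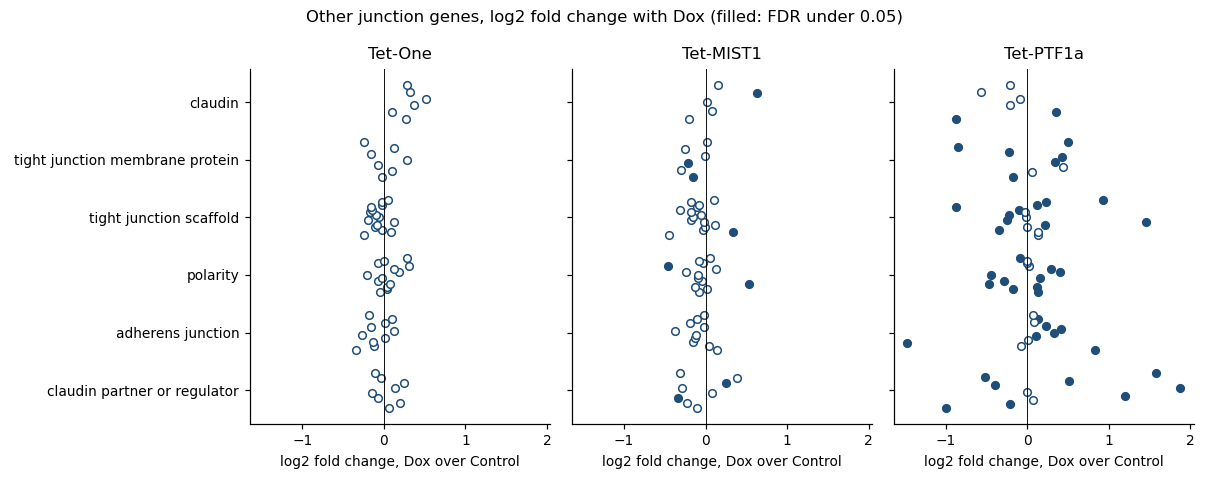
Log2 fold change of Dox over Control (x axis) of the other junction genes, grouped by class on the y axis with genes spread vertically within a class, filled where FDR < 0.05. The Tet-One panel has 0 filled points, that of Tet-MIST1 8 and that of Tet-PTF1a 43, which run from -1.47 (CDH3) to 1.87 (SPINT1).

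The genes whose pattern was most like that of CLDN1 and CLDN4 were found by the Pearson correlation of log2 CPM, less the Control mean of the same line, over the 24 libraries. The 8 libraries of a line share a clone and a subtracted mean, so these values are a description and carry no p. For CLDN1 they were CAV1 (0.94), LINC00941 (0.93), EOMES (0.93), RASSF3 (0.93) and PLK2 (0.92), out of 12783 genes. Among the members, CLDN7 was the nearest to CLDN1 (0.83) and F11R the most opposed (-0.91). For CLDN4 they included PLA2G16 (0.92), EDEM2 (0.91), HEXDC (0.91) and C17orf59 (0.91). Without Tet-One Dox replicate 1, CAV1 remained the first for CLDN1, while ZNF696 and QPRT came first for CLDN4 and the correlation of CLDN1 with CLDN4 went from -0.53 to -0.79.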

How the data were processed

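Poly(A) RNA of 24 Panc-1 libraries, in 6 groups of 4 defined by line and Dox, was sequenced as paired ends. The authors deposited 1 table per line with whole-number counts per gene and a CPM signal for each library. The submitters' processing notes name TopHat, HTSeq, DESeq, edgeR and the genome build hg19. The annotation and strand setting are not given in the sources used here. The deposited CPM signal was scaled by the authors with edgeR, and it is printed only as a level. The tables also hold the authors' fold changes and p-values, which were not used. Names turned into dates by a spreadsheet (20 per table) were left out of fits that join tables.

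Counts were tested with edgeR 4.0.16 in R 4.3.3 (TMM factors, robust quasi-likelihood fit, Benjamini-Hochberg FDR < 0.05 over all genes tested, genes above 0.5 CPM in at least 4 libraries, log2 fold changes with a prior count of 2). Lines were fitted apart for Dox against Control, and pairs of lines together for interactions and for Control groups. An SE is the absolute unshrunk log2 fold change over the root of the F statistic. DESeq2 1.42.0 and 11 other settings, and fits without each library, were alternatives. The script was tested on simulated counts. Counts that share a table were compared between replicates: all 36 pairs differed beyond sampling noise, with a ratio of chi-square to degrees of freedom of at least 1.38, so none was counted as a duplicate.

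The 9 members, the junction list and the marker lists were chosen with earlier results of these data known. Genes named from the junction list were the 3 with the largest called rise and the 3 with the largest called fall in each line at a mean above 1 CPM, and others named were chosen after their values were seen. For likeness, the 5 genes with the highest correlation were taken, of which 1 is not reported here.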

Additional observations from a re-analysis of the deposited data

Results flagged for a closer look

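Of 54 groups of 4 libraries tested for a single library far from the other 3 (Dixon's ratio above its 95% critical value), 5 held one, and chance gives about 1 in 20. CLDN10 at 16.4 CPM and TJP1 at 75.1 CPM were in Tet-One Dox replicate 1, where the other 3 libraries held 14.3 to 14.4 CPM and 147 to 156 CPM, and this library stood apart over all genes. CLDN1 was 3.16 CPM in Tet-One Dox replicate 2, against 3.83 to 3.91 in the others. TJP3 was 0.153 CPM in Tet-One Control replicate 1, against 0.340 to 0.368, at 6 counts against 14. CLDN7 was 11.4 CPM in Tet-PTF1a Dox replicate 1, against 10.4 to 10.5.

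Responses to Dox that differed between lines were, for PTF1a against MIST1, CLDN10 (0.57 on the log2 scale, FDR = 1.29e-05), OCLN (0.39, FDR = 3.44e-05), F11R (0.36, FDR = 6.62e-06), CLDN7 (-0.82, FDR = 7.41e-08) and CLDN1 (-0.29, FDR = 0.0233). For PTF1a against the empty vector they were F11R (0.53, FDR = 3.01e-05), CLDN7 (-0.95, FDR = 6.91e-05) and CLDN1 (-0.64, FDR = 6.36e-04), and for MIST1 against the empty vector CLDN10 (-0.36, FDR = 0.0402). Each line was 1 clone, so a difference between factors and a difference between clones cannot be told apart.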

How the results depend on the processing

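With a required log2 change of 1, members called went to 0 in Tet-MIST1 and Tet-PTF1a and in each of the 3 comparisons of responses, and to 3 in each pair of Control groups, and junction list genes called to 0 with MIST1 and 6 with PTF1a. The likelihood ratio test called 13 list genes in Tet-MIST1, and a fit of all 24 libraries called 26 in Tet-PTF1a. With the length and GC trend removed, the MIST1 response differed from the empty vector in 2 members. Equal replicate numbers did not deviate together (correlations of -0.39 to 0.34 between same-numbered Control and Dox libraries), so the replicate block was only an alternative: with it 3 members and 4 list genes were called in Tet-MIST1, where CLDN10 (FDR = 0.0728) and F11R (FDR = 0.101) did not pass, and 0 members in the MIST1 response against the empty vector, where CLDN10 did not pass (FDR = 0.241).

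Leaving out 1 library at a time, members called ranged from 0 to 0 in Tet-One, 3 to 5 with MIST1 and 5 to 6 with PTF1a, from 0 to 2, 3 to 5 and 4 to 5 in the responses (MIST1 against empty vector, PTF1a against empty vector, PTF1a against MIST1), and from 8 to 9, 7 to 9 and 8 to 9 in the Control pairs in the same order. List genes called ranged from 3 to 13 with MIST1 and 40 to 44 with PTF1a.

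Signs turned only for log2 values that did not pass, apart from OCLN (-0.32), TJP1 (-0.20) and CLDN12 (-0.19) between Tet-PTF1a and Tet-One Control with the length and GC trend removed. Under that setting they were CLDN7 (-0.060) and F11R (0.045) in Tet-One, CLDN12 (-0.0021) and TJP1 (0.017) in Tet-MIST1, TJP1 (-0.0091) in Tet-PTF1a and CLDN4 (0.085) in PTF1a against MIST1. With library totals alone they were CLDN1 (-0.0079) and CLDN7 (-0.011) in Tet-One and CLDN4 (0.019) in PTF1a against MIST1. Leaving out 1 library, values ranged in Tet-One from -0.012 to 0.087 for CLDN1, -0.095 to 0.093 for CLDN7 and -0.21 to 0.069 for TJP1, in Tet-MIST1 from -0.22 to 0.24 for TJP3, and for the CLDN4 response from -0.016 to 0.21 (MIST1 against empty vector), -0.038 to 0.19 (PTF1a against empty vector) and -0.062 to 0.013 (PTF1a against MIST1). The cause of these changes was not tested.

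Of all genes called in the PTF1a response against the empty vector 42.9% were higher, and 54.1% with library totals alone. TJP3 rests on 6 to 93 counts per library, which limits what can be seen of it. Counts were not split by strand, and no protein or junction function was measured.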
